A study of Schizosaccharomyces pombe with 6 samples.

Results

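The genes described here handle zinc and copper in fission yeast (Schizosaccharomyces pombe). They are the metallothionein gene zym1, the zinc genes zrt1, zhf1, loz1 and adh4, and the copper genes ctr4, ctr5, ctr6 and cuf1. They were chosen by gene name, each name matched 1 row of the count table, and together they make 9 of its 6988 features. RNA was measured as read counts of poly(A)+ RNA in 2 haploid strains of mating type h-, kept in exponential growth in the rich medium YES. One strain carries wild-type pla1 and the other carries pla1 with the active-site change Y86D, and in both the gene is tagged with the kanMX drug marker. Pla1 is the nuclear poly(A) polymerase, which adds the tail to the 3' end of mRNA. Each strain has 3 libraries, and the labels do not say whether these came from separate cultures, so p-values measure the spread between libraries, which may be partly technical. Each group is 1 strain, so the mutation cannot be told apart from any other difference between the strains.

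Zinc is needed by many enzymes and becomes toxic in excess, so cells match its uptake to supply. In fission yeast the zinc finger protein Loz1 represses zinc uptake genes and a set of other genes when zinc is plentiful, and metallothionein binds metal ions in the cytosol. Copper uptake is set by the transcription factor Cuf1, which switches on the copper transporter genes when copper is scarce.

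Library totals ranged from 17594840 to 21849845 counts. Levels are CPM, counts scaled to a common library total, and each fold change is given as a log2 value with pla1-WT as the base. A gene was called when its edgeR adjusted p, computed over all 6267 features that passed a filter on low counts, was under 0.05. All 9 genes passed that filter. The pla1 mRNA was at 35.8, 36.3 and 37.6 CPM in pla1-WT and at 48.1, 47.7 and 46.5 CPM in pla1-Y86D, a value that cannot check a point mutation. The summed level of 5 marker genes of mating type M, the type named h-, was 64.2 to 71.7 CPM in pla1-WT and 53.8 to 54.7 CPM in pla1-Y86D. For 2 markers of the opposite type it was 16.2 to 17.7 CPM and 13.1 to 15.2 CPM. Of the M markers mfm2 (log2 fold change -0.95) and mam1 (-0.26) fell, mam2 (0.80) rose, and the other 2 were not called. Of the P markers map2 (0.58) rose and map3 (-0.69) fell. The part of these markers in the results below was not tested.

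Of the 9 genes, 7 were called, 2 higher and 5 lower in pla1-Y86D. Calls were common in these data, at 81.2% of all features tested, with 40.1% higher and 41.1% lower, so the number of calls was near the background. Changes of at least 2-fold were rarer, at 9.02% of features higher and 2.38% lower. They were reached by 3 of the 9 genes, against 11.4% of features in either direction, namely by zym1 upward and by zrt1 and adh4 downward. The 9 genes were chosen with earlier results of these data known, so this comparison is a description and not a test. The libraries of the strains did not overlap for any of the 9 genes, as for 81.9% of all features tested. The median log2 fold change of the 9 genes was -0.21, against -0.0047 over all features tested, and the median size of change was 0.34 against 0.31. Over the protein-coding features tested these medians were -0.055 and 0.27. The large changes were all in the zinc and metallothionein genes, whereas each copper gene had a log2 fold change between -0.40 and 0.06.

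**Figure D1:**
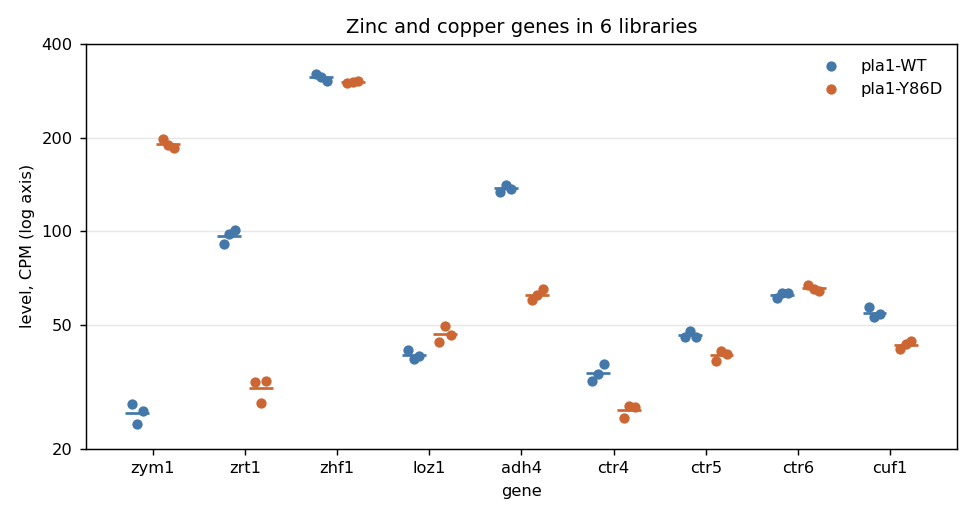
Level of each of the 9 genes in CPM (log axis) in the 3 pla1-WT libraries (blue) and the 3 pla1-Y86D libraries (orange), with short lines at the means. The pla1-Y86D libraries lie far above pla1-WT for zym1 (185 to 198 CPM against 23.9 to 27.9) and below it for zrt1 and adh4, while zhf1 and ctr6 lie close together.

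**Figure D2:**
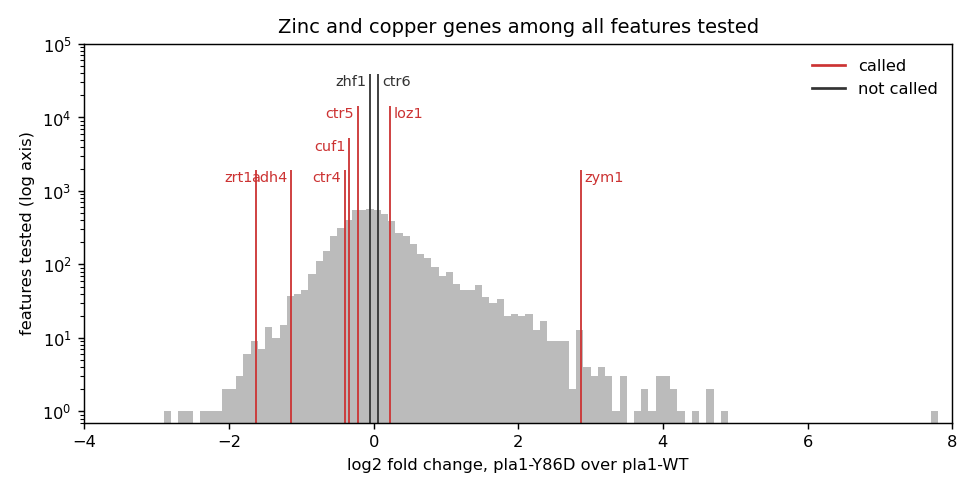
Histogram of the log2 fold change of the 6267 features tested (number of features on a log axis), with lines at the 9 genes, red where called and black where not. The gene zym1 (2.87) lies in the upper tail and zrt1 (-1.62) in the lower tail, and the copper genes lie near the centre.

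The metallothionein gene zym1 (SPAC22H10.13) encodes a small metal-binding protein that protects cells from zinc and cadmium. It was at 27.9, 23.9 and 26.5 CPM in pla1-WT replicates 1, 2 and 3, and at 198, 189.9 and 185 CPM in pla1-Y86D replicates 1, 2 and 3. Every mutant library was far above every control library. The means were 26.1 ± 2.0 and 191 ± 6.6 CPM (SD, n = 3 per strain), a 7.31-fold rise (log2 fold change 2.87, SE 0.041, edgeR adjusted p = 1.81e-32). By size of increase it was number 21 of the 4996 protein-coding genes tested. Over the 6 libraries, the protein-coding genes whose log2 CPM relative to the pla1-WT mean lay nearest to zym1 were rec8 (root-mean-square difference 0.090), str1 (0.090) and SPCC338.18 (0.10).

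The gene zrt1 (SPBC16D10.06) encodes the plasma membrane ZIP transporter that takes up zinc with high affinity, and Loz1 represses it when zinc is plentiful. It was at 91.2, 98.4 and 100.6 CPM in pla1-WT and at 32.9, 28.1 and 33.1 CPM in pla1-Y86D. Every mutant library was far below every control library. The means were 96.7 ± 4.9 and 31.4 ± 2.8 CPM (SD, n = 3), a 3.08-fold fall (log2 fold change -1.62, SE 0.051, edgeR adjusted p = 3.11e-18). It had the fall of rank 20 among the protein-coding genes. The genes nearest to it by the same measure were aat1 (root-mean-square difference 0.076), sfp1 (0.084) and cym1 (0.094).

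The gene adh4 (SPAC5H10.06c) encodes an alcohol dehydrogenase and is known to be repressed through Loz1 in zinc-replete cells. It was at 134, 141 and 137 CPM in pla1-WT and at 60.1, 62.2 and 65.1 CPM in pla1-Y86D. The lowest control library had more than double the level of the highest mutant library. The means were 137 ± 3.6 and 62.5 ± 2.5 CPM (SD, n = 3), a 2.20-fold fall (log2 fold change -1.14, SE 0.034, edgeR adjusted p = 2.34e-25).

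The regulator gene loz1 (SPAC25B8.19c) was at 41.5, 39.0 and 39.7 CPM in pla1-WT and at 44.0, 49.7 and 46.5 CPM in pla1-Y86D. The mutant libraries were all slightly higher. The means were 40.1 ± 1.3 and 46.7 ± 2.9 CPM (SD, n = 3), which gave 0.22 on the log2 scale with a standard error of 0.047 (edgeR adjusted p = 6.18e-05). The gene zhf1 (SPAC23C11.14) encodes the carrier of the cation diffusion facilitator family that moves zinc into the endoplasmic reticulum. It was at 320, 313 and 305 CPM in pla1-WT and at 300.2, 301 and 305 CPM in pla1-Y86D. The groups nearly touched, and zhf1 was not called, with a log2 fold change of -0.05 (95% interval -0.10 to -0.0039, edgeR adjusted p = 0.0509). With protein-coding features alone its log2 fold change was 0.0032, so no direction can be given. It was called lower with no filter on low counts (-0.058, edgeR adjusted p = 0.0306) and without pla1-WT replicate 3 (-0.071, edgeR adjusted p = 0.0126).

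Promoters are shown for zrt1 and adh4, the members that fell together and are known Loz1 targets. Loz1 recognises a DNA element built around GATC, the Loz1 response element. The sequences are the 300 bases before the annotated transcript start, read 5' to 3' on the gene's strand from RefSeq assembly ASM294v3 by gene identifier, a later version than the build ASM294v2 named in the submitters' processing notes. In the zrt1 sequence (chromosome II, plus strand) capitals mark the match to the Loz1 response element, and in that of adh4 (chromosome I, minus strand) capitals mark each GATC.
zrt1: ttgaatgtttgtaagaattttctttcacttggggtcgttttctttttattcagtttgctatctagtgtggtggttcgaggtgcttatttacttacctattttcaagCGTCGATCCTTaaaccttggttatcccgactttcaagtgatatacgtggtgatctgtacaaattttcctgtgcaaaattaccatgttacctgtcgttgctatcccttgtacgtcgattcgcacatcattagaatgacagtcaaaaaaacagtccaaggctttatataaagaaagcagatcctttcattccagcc
adh4: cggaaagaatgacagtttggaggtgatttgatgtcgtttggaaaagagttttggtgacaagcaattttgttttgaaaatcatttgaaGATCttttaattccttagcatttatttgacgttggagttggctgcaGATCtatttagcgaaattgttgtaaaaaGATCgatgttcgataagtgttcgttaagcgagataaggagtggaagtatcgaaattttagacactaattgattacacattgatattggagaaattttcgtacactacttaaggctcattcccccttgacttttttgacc

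The Loz1 response element, searched on both strands, begins 194 bases before the zrt1 start. It was found in no other window of the 9 genes and in 0.43% of the 5112 windows of the same length before protein-coding genes. The bare GATC, which every such element contains, occurs at 3 places before zrt1, 3 before adh4, 4 before zhf1, 2 before zym1 and 1 before loz1, ctr6 and cuf1 each. It lies in 43.3% of all such windows, so its presence sets none of these genes apart. The motif TGACGT, the core of the element bound by the stress factor Atf1, begins 187 bases before adh4 and is in 6.03% of all windows, but is not in the zym1 window. These matches describe the letters and were not tested as binding sites.

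Annotated features that overlap or adjoin zrt1 and adh4 were read from the same fit where they have a row in the count table. The noncoding RNA SPNCRNA.1622 runs away from zrt1 on the opposite strand and overlaps the first 95 bases of its transcript. In the annotation it also spans all 300 bases of the promoter printed above. It was at 4.19, 4.05 and 4.22 CPM in pla1-WT and at 13.9, 14.9 and 13.2 CPM in pla1-Y86D. It rose in every mutant library while zrt1 fell (log2 fold change 1.75, SE 0.10, edgeR adjusted p = 5.06e-17). The silencing deacetylase gene sir2, which overlaps the other end of zrt1 by 114 bases on the opposite strand, fell slightly (-0.24, edgeR adjusted p = 1.81e-05). The strand setting of the authors' counting is not given in the sources used here, so reads in these overlaps are of uncertain origin.

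Upstream of adh4 lies SPAC5H10.07 on the opposite strand, with 1270 bases between the annotated transcripts. It was at 5.77, 5.83 and 5.55 CPM in pla1-WT and at 0.97, 0.77 and 1.23 CPM in pla1-Y86D. It fell further than adh4 did (log2 fold change -2.50, SE 0.18, edgeR adjusted p = 1.66e-14), and only 2 of the protein-coding genes tested had a lower log2 fold change. On the other side of adh4, at 914 bases, SPAC5H10.04 moved the opposite way, from 10.7 ± 0.37 to 31.4 ± 0.53 CPM (SD, n = 3, log2 fold change 1.55, SE 0.068, edgeR adjusted p = 1.06e-20). The adh4 locus thus held changes in both directions. Noncoding RNAs that overlap adh4 by 699 and 542 bases on the opposite strand have no row in the count table. Overlapping features, all on the opposite strand, are annotated for 7 of the 9 genes. Of these 11 features, 4 have a row. With the strand setting unknown, reads in the overlaps are of uncertain origin for all 7 genes. Around all 9 genes, 16 of 29 annotated overlapping or adjacent features have a row in the count table. Of the 12 tested, 6 rose and 4 fell, near the background of 81.2% of all features called. One of the 4 was pst2 beside zhf1 (-0.09), whose call was lost by DESeq2 (adjusted p = 0.0777), with protein-coding features alone (edgeR adjusted p = 0.308) and without pla1-WT replicate 2 (edgeR adjusted p = 0.0501).

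**Figure D3:**
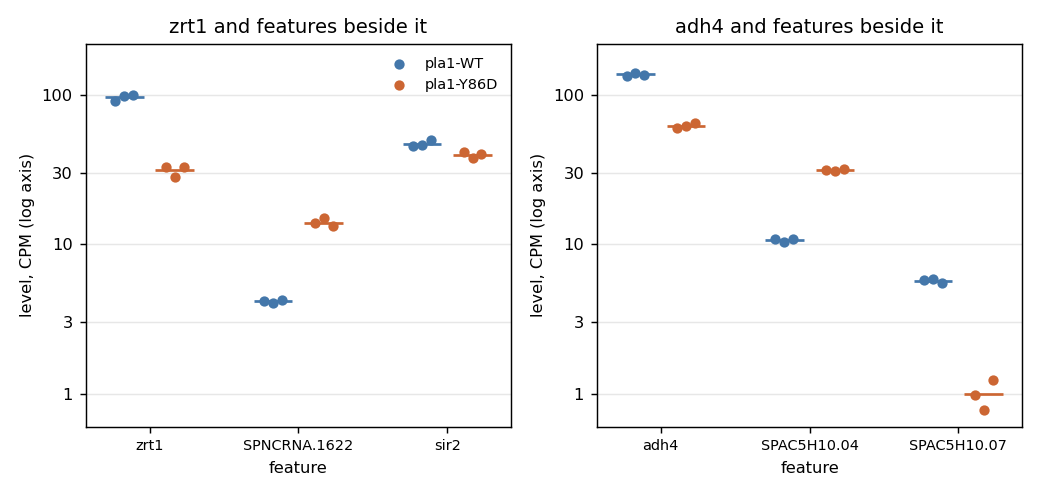
Level in CPM (log axis) of zrt1 (left) and adh4 (right) and of the tested features that overlap or adjoin them, in the 3 pla1-WT libraries (blue) and the 3 pla1-Y86D libraries (orange), with lines at the means. SPNCRNA.1622 and SPAC5H10.04 are higher in all pla1-Y86D libraries, and SPAC5H10.07 falls to about 1 CPM.

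Ctr4 and Ctr5 together form the high-affinity copper transporter of the plasma membrane, and neither works without the other. The gene ctr4 (SPCC1393.10) was at 33.0, 34.8 and 37.4 CPM in pla1-WT and at 25.1, 27.5 and 27.2 CPM in pla1-Y86D. Its mutant libraries all lay below the controls, and the fitted log2 change came to -0.40 with a standard error of 0.056 (edgeR adjusted p = 8.07e-08). The gene ctr5 (SPAC1142.05) was at 45.6, 47.8 and 45.8 CPM in pla1-WT and at 38.3, 41.4 and 40.4 CPM in pla1-Y86D. It fell too, by 0.21 on the log2 scale (SE 0.045, edgeR adjusted p = 6.06e-05).

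The ratio of ctr4 to ctr5 within a library does not depend on how libraries are scaled. In counts per base of coding sequence it was 0.434, 0.437 and 0.490 in pla1-WT, against 0.393, 0.399 and 0.405 in pla1-Y86D. The groups did not overlap, with means of 0.454 ± 0.032 and 0.399 ± 0.0056 (SD, n = 3). The mean log2 ratio was lower by 0.18 in the mutant, and the two-sided exact permutation p was 0.1, the smallest that 3 libraries against 3 allow. The difference in log2 ratio was -0.13 without pla1-WT replicate 3, the control library with the highest ratio. The level of the ratio depends on the length used, since the annotated ctr4 transcript hardly extends beyond its coding sequence whereas that of ctr5 does.

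**Figure D4:**
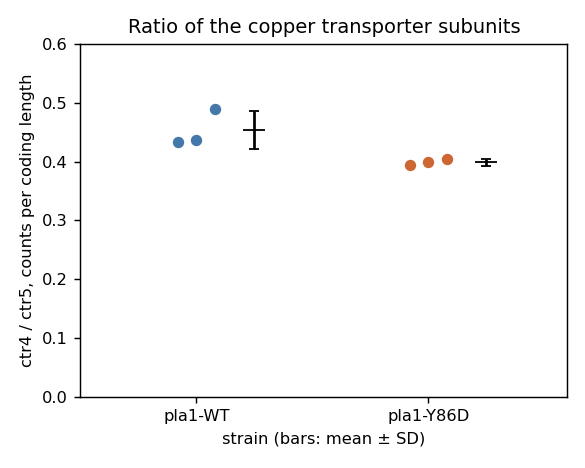
Ratio of ctr4 to ctr5 in counts per base of coding sequence, for each pla1-WT library (blue) and pla1-Y86D library (orange), with the mean ± SD beside the points. All 3 pla1-Y86D libraries, at 0.393 to 0.405, lie below the lowest pla1-WT library at 0.434.

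The regulator gene cuf1 (SPAC31A2.11c) encodes the copper-sensing factor that activates ctr4, ctr5 and ctr6. It was at 57.1, 53.2 and 54.0 CPM in pla1-WT and at 41.9, 43.3 and 44.4 CPM in pla1-Y86D. All mutant libraries were below all controls, and the fitted log2 change came to -0.34 with a standard error of 0.043 (edgeR adjusted p = 1.07e-08). The gene ctr6 (SPBC23G7.16) encodes the carrier that releases copper from the vacuole. It was at 61.3, 63.5 and 63.1 CPM in pla1-WT and at 67.2, 65.5 and 64.1 CPM in pla1-Y86D. It was not called, with a log2 fold change of 0.06 (95% interval -0.0095 to 0.14, edgeR adjusted p = 0.114). It was called higher with upper-quartile scaling (0.08, edgeR adjusted p = 0.0409) and with protein-coding features alone (0.12, edgeR adjusted p = 0.00458). The Cuf1-activated transporter genes thus did not all pass the test, with ctr4 and ctr5 lower and ctr6 uncalled.

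The promoter of ctr5 (chromosome I, plus strand, ASM294v3, 300 bases before the annotated start) is shown because it holds both copies of the copper-signalling element (CuSE) found before the plasma membrane transporter genes. Capitals mark the CuSE matches.
ctr5: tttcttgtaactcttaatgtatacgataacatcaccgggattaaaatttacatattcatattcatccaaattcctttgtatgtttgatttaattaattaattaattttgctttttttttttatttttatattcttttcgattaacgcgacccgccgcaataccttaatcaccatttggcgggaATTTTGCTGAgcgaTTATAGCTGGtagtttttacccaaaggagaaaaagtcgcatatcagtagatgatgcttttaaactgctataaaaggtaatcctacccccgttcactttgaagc
The CuSE matches begin 117 and 103 bases before ctr5. On both strands together, CuSE was found at 1 place before ctr6 and 1 before cuf1, and in 24.9% of all windows before protein-coding genes. None was found before ctr4, whose annotated start is that of its coding sequence, so the window may lie partly in its transcript. The noncoding RNA SPNCRNA.923 lies on the opposite strand across the ctr5 start, overlapping it by 451 bases. It rose from 14.9 ± 0.62 to 19.5 ± 1.1 CPM (SD, n = 3, log2 fold change 0.39, edgeR adjusted p = 1.74e-05). Since the strand setting of the counting is unknown, reads in this overlap are of uncertain origin, which touches the values of ctr5 and its ratio to ctr4.

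Levels of different genes were compared per kilobase of annotated transcript. In pla1-WT the order of CPM per kilobase was zhf1 (176 ± 4.3), adh4 (91.4 ± 2.4), ctr6 (78.6 ± 1.5), zym1 (48.9 ± 3.8), zrt1 (44.9 ± 2.3), ctr5 (39.9 ± 1.1), ctr4 (38.8 ± 2.5), cuf1 (25.7 ± 0.97) and loz1 (12.7 ± 0.42), each as mean ± SD of 3 libraries. The library ranges of zym1 and zrt1 overlapped, as did those of ctr5 and ctr4, and the other neighbours in this order were apart. In pla1-Y86D zym1 came first at 357 ± 12 CPM per kilobase, ahead of zhf1 at 169.6 ± 1.3. There zrt1 came last at 14.6 ± 1.3, and its range overlapped that of loz1 at 14.9 ± 0.91. In bulk RNA, a lower level in every cell and a loss from some cells cannot be told apart.

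Other genes of zinc and copper handling were taken from 5 lists written from general knowledge with earlier results of these data known. Of 35 genes, 30 were tested, of which 15 were higher and 12 lower, against the background of 40.1% and 41.1% of all features. At least 2-fold changes were found for 3 upward and 1 downward, against 9.02% and 2.38% of all features tested. Both the 15 higher and these 3 include cuf2, which passed the filter on low counts only through the mutant libraries. The median log2 fold change of the 30, cuf2 among them, was 0.09.

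All 5 other zinc transporter genes were lower, against 41.1% of all features tested. Their median log2 fold change was -0.42, against -0.0047 over all features and -0.055 over the protein-coding features tested. The call of zrg17 was lost with protein-coding features alone (-0.07, edgeR adjusted p = 0.122). The plasma membrane iron and zinc transporter gene fet4 fell most. It was at 10.7, 11.9 and 11.0 CPM in pla1-WT and at 4.81, 3.76 and 4.02 CPM in pla1-Y86D, with a fitted log2 change of -1.42 and a standard error of 0.11 (edgeR adjusted p = 1.43e-13). Its libraries did not overlap between the strains. The log2 fold changes of the Golgi and endoplasmic reticulum genes were smaller, at -0.46 for cis4, -0.12 for zrg17 and -0.13 for zip3, and that of the vacuolar exporter gene zip2 was -0.42.

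Of 4 further genes known to be repressed by Loz1, only gcd1, a glucose dehydrogenase gene, had counts enough for a test. It rose, opposite to zrt1 and adh4, from 8.40 ± 0.10 to 13.9 ± 1.2 CPM (SD, n = 3, log2 fold change 0.73, SE 0.091, edgeR adjusted p = 6.67e-09). The relatives SPBC1348.06c and SPAC977.05c were at 0 to 2 counts in every library, and vel1 was not matched. Among zinc-dependent enzymes 2 of 4 were higher and 1 lower, against 40.1% and 41.1% of all features tested. The main alcohol dehydrogenase gene adh1 rose by 0.30 on the log2 scale, from 8085 ± 133 to 9988 ± 135 CPM, whereas adh4 fell.

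Copper delivery and use had 7 genes higher and 5 lower of 14 tested, with a median of 0.05. Of all features tested, 40.1% were higher and 41.1% lower. The 7, the 14 and the median include cuf2, whose values are described below with no test. The copper chaperone gene ccs1, which serves superoxide dismutase, was at -0.23. The multicopper oxidase gene fio1, which acts in iron uptake, was at 14.6, 14.1 and 14.9 CPM in pla1-WT and at 44.4, 41.3 and 43.5 CPM in pla1-Y86D. It rose 1.57 on the log2 scale (SE 0.058, edgeR adjusted p = 7.64e-23). The other large rises were in genes of low level. The gene mfc1, for a copper transporter of the forespore membrane in meiosis, rose from 1.92 ± 0.082 to 5.93 ± 0.79 CPM (log2 fold change 1.61, edgeR adjusted p = 2.86e-11). The gene of the meiotic Cuf1 relative cuf2 had 6, 3 and 1 counts in pla1-WT and 19, 28 and 20 in pla1-Y86D. It passed the filter on low counts only through the mutant libraries, where it is high, so its values are a description with no test. Its fitted log2 change of 2.86 became 3.61 when pla1-WT replicate 1 was left out, and 2.41 when pla1-WT replicate 3 was. The copper amine oxidase-like gene cao2 rose by 0.69. The small rise of atx1 (0.09) was no longer called when either pla1-WT replicate 3 (edgeR adjusted p = 0.0543) or pla1-Y86D replicate 3 (edgeR adjusted p = 0.15) was left out.

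Phytochelatins are glutathione-derived peptides that bind cadmium and other metals. Of 7 genes for their synthesis, transport and control, 5 were higher and 2 lower, with a median of 0.19. Of all features tested, 40.1% were higher and 41.1% lower. The vacuolar transporter gene hmt1 rose from 99.7 ± 3.2 to 165 ± 2.8 CPM (SD, n = 3, log2 fold change 0.73, edgeR adjusted p = 1.17e-21). The bZIP factor gene zip1, needed for cadmium tolerance, rose by 0.65 (edgeR adjusted p = 2.21e-22). The phytochelatin synthase gene pcs2 was lower (-0.46, edgeR adjusted p = 1.65e-12), as was the glutathione synthetase gene gsa1 (-0.46, edgeR adjusted p = 5.03e-16).

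**Figure D5:**
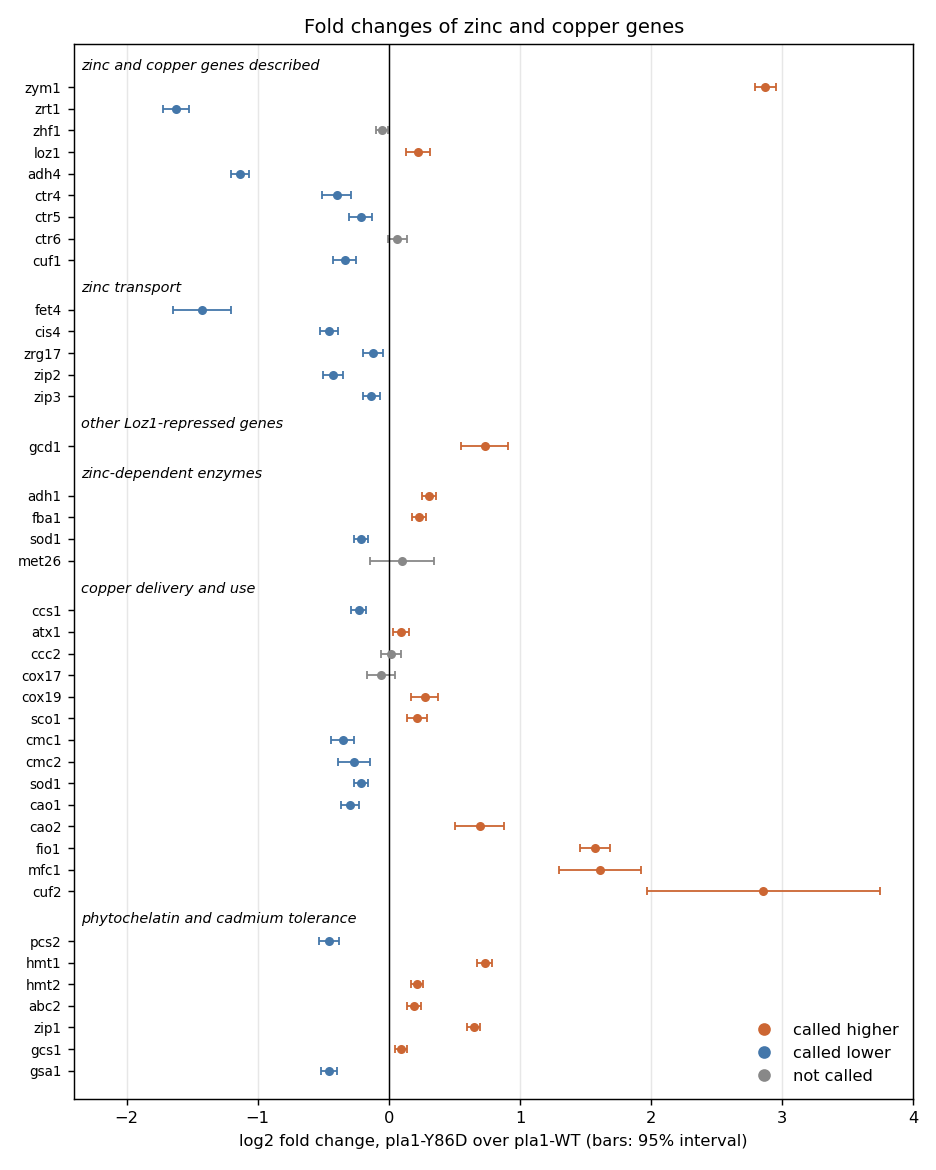
Log2 fold change with 95% interval of the 9 genes and of the 5 lists of other zinc and copper genes (sod1 is on both the zinc enzyme and the copper list), orange where called higher, blue where called lower and grey where not called. All 5 zinc transporter genes lie left of 0, and the copper list spreads to both sides. The gene cuf2, drawn as called higher, passed the filter on low counts only through the mutant libraries.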

How the data were processed

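The authors deposited whole-number read counts per annotated feature, without normalization, and per the file headers a DESeq2 comparison of the strains. In that comparison the signal columns are the authors' means of counts divided by size factors, the log2 columns their fold change and its standard error, the Wald score and the p-values as deposited. HISAT2 2.1.0, SAMtools, HTSeq 0.10.0, DESeq2, DESeq and build ASM294v2 are named in the submitters' processing notes. The strand setting is not given in the sources used here, nor is the annotation release. Symbols were taken from that comparison, and the adjusted p in the authors' deposited table also called 7 of the 9 genes.

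Counts were fitted with edgeR 4.0.16 in R 4.3.3 (filterByExpr, TMM scaling, robust quasi-likelihood test, strain as the only term, Benjamini-Hochberg adjustment over all 6267 features tested), and the fit was tested on simulated data. Each standard error is the size of the fold change over the square root of its F statistic, and 95% intervals were taken as 1.96 standard errors either way. The count table had 6988 features, of which 6836 matched RefSeq ASM294v3 by identifier. That reference served for neighbours, lengths and promoter sequences, and no coordinates are printed. A search with blastn found no other match to the 9 transcripts in the genome. The exact permutation test was used for the ratio.

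The members and lists were chosen with earlier results of these data known. Named were all 9 genes, pla1, the mating type markers, the first gene of each list, listed genes called with a log2 fold change of at least 0.58 in size, neighbours called at 1 or more, and 3 genes nearest to the largest rise and fall (pseudocount 0.5 CPM). Other names were added after their values were seen: sir2, pst2, SPNCRNA.923, SPAC25B8.18, cis4, zrg17, zip2, zip3, atx1, gsa1, SPBC1348.06c, SPAC977.05c and, in the section on processing, ccc2, met26, mti3 and scd2. The listed genes vel1, cox11 and cox23 found no match and are left out.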

Additional observations from a re-analysis of the deposited data

How the results depend on the processing

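Alternatives were RLE and upper-quartile scaling, DESeq2 1.42.0, no filter on low counts, protein-coding features alone, the replicate block and leaving out each library. Under all of them zym1, zrt1, adh4, loz1, ctr4, ctr5 and cuf1 kept their direction and their call. Without single libraries the log2 fold change ranged from 2.81 to 2.92 for zym1, from -1.67 to -1.55 for zrt1 and from -1.17 to -1.11 for adh4. The exceptions were the genes not called. For zhf1 the value was -0.058 with no filter on low counts and 0.0032 with protein-coding features alone, and it ranged from -0.071 to -0.036 without single libraries. For ctr6 it was 0.084 with upper-quartile scaling and 0.12 with protein-coding features alone. The cause was not tested. The protein-coding scaling moved all features by a median of 0.05, about the size of both changes. Among other genes, 2 uncalled ones changed sign without single libraries, ccc2 (-0.026 to 0.042) and mti3, next to ctr6 (-0.0024 to 0.12), and met26 was called without pla1-Y86D replicate 3 (0.21, edgeR adjusted p = 0.000741), mti3 without pla1-Y86D replicate 2 and scd2, next to zym1, without pla1-WT replicate 2 (-0.10). The ratio of ctr4 to ctr5 differed by -0.21 to -0.13 without single libraries (log2), a check added after the data were seen.

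Same-numbered libraries did not deviate together (correlations of -0.10, 0.03 and -0.03 over 5832 features), so no pairing by number was seen. With 3 libraries per strain this check cannot exclude pairing. With the replicate block 5057 features were called against 5086, the 7 called genes kept their calls, and zhf1 stayed uncalled (edgeR adjusted p = 0.058). Precision is limited by low counts for cuf2, SPBC1348.06c and SPAC977.05c, and the cause of the low counts was not tested.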
